A study of Mus musculus with 2 samples.

Results

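The nuclear genes of respiratory complexes II to V were described in long-read RNA sequencing of the left cerebral cortex, from male B6CASTF1/J mice, an F1 hybrid of a laboratory strain and a wild-derived strain, at 14 days of age. Members were the protein-coding genes read in both libraries and named Sdha to Sdhd, Cyc1, Uqcr, Cox4 to Cox8 with a letter, or Atp5, with Atp5s left out. They came to 44 of 13061 protein-coding genes with a read in both libraries: 4 of complex II, 9 of complex III, 14 of complex IV and 17 of complex V. The labels give 1 group with no treatment or mutant allele, and 2 libraries, replicate 1 and replicate 2. Each began with 2 µg of total RNA, to which ERCC and SIRV spike-in RNAs were added. The labels give one donor identifier for both samples and mention several males, so each may be a pool, nothing shows that they came from separate animals, and differences between them may be technical. Every p-value below therefore sets 2 libraries against counting error and compares no conditions.

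Replicate 1 held 775048 mouse reads and replicate 2 held 924222. The members took 10008 of them (1.29%, 95% Wilson interval 1.27% to 1.32%) in replicate 1 and 13859 (1.5%, 1.47% to 1.52%) in replicate 2. Intervals here cover counting error only. The name Atp5o belongs to 2 gene identifiers, the usual gene and a readthrough locus with 3 reads in each library, which is counted as a member of its own. Cox7b2 (1 and 0 reads in replicates 1 and 2) and Cox6b2 (0 and 1 reads) were read in 1 library each and are not members, and Atp5s, left out by rule, had 23 and 31 reads. The cortical label was checked with Slc17a7, the vesicular glutamate transporter of cortical excitatory neurons, which stood at 1368 CPM (a gene's reads scaled to 1000000 mouse reads) in replicate 1 and 1316 CPM in replicate 2.

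Oxidative phosphorylation couples electron transport in the inner mitochondrial membrane to ATP synthesis, on which neurons depend for ion pumping and synaptic transmission. Complex II (succinate dehydrogenase) passes electrons from succinate to ubiquinone, complex III (cytochrome bc1) from ubiquinol to cytochrome c, and complex IV (cytochrome c oxidase) from cytochrome c to oxygen. Complexes III and IV pump protons, and complex V, the ATP synthase, uses the gradient to make ATP. Complex II is encoded in the nucleus alone, while complexes III, IV and V also contain subunits made from the mitochondrial genome.

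Every complex was well represented in both libraries. The members of complex V together held 5765 CPM in replicate 1 and 5878 CPM in replicate 2 (mean 5822 ± 80.4, SD, n = 2), and those of complex IV held 3700 and 5482 CPM (4591 ± 1260). Complex III held 2462 and 2677 CPM (2569 ± 152), and complex II held 986 and 958 CPM (972 ± 19.9). With members set by gene name, the order V, IV, III, II was the same in both libraries when all models were counted. With reads of Known models only (those with an annotated splice chain), complex V held 4592 CPM in replicate 1 and 4532 CPM in replicate 2, and complex IV held 3589 and 5308 CPM, so that the order of these complexes turned round in replicate 2. One long read stands for 1 transcript, so CPM was not divided by length. On the scale of CPM per kb of model length (RPKM), the order of complexes IV and V turned round: the mean was 7281 RPKM for complex IV, 5130 RPKM for complex V, 2421 RPKM for complex III and 545 RPKM for complex II. In bulk tissue, fewer cells of a type and less RNA per cell cannot be told apart.

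Expression was spread widely within the complexes. Of the 44 members, 34 had a mean of 100 CPM or more and 3 had under 5 CPM. The 5 members with most reads held 44.2% of the members' reads in replicate 1 and 41.9% in replicate 2. The median member stood at 178 CPM in replicate 1 and 219 CPM in replicate 2. For 38 genes picked by name as complex I, the NADH dehydrogenase, the median was 105 and 149 CPM. For all protein-coding genes read in both libraries it was 23.2 and 23.8 CPM. The complex I names start with Ndufa, Ndufb, Ndufc, Ndufs or Ndufv, assembly factors left out. Ndufa4 was the highest of them (mean 813 CPM), and the place of each product in the complex was not checked. The median of complexes II to V over that of complex I was 1.70 in replicate 1 and 1.46 in replicate 2.

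**Figure D1:**
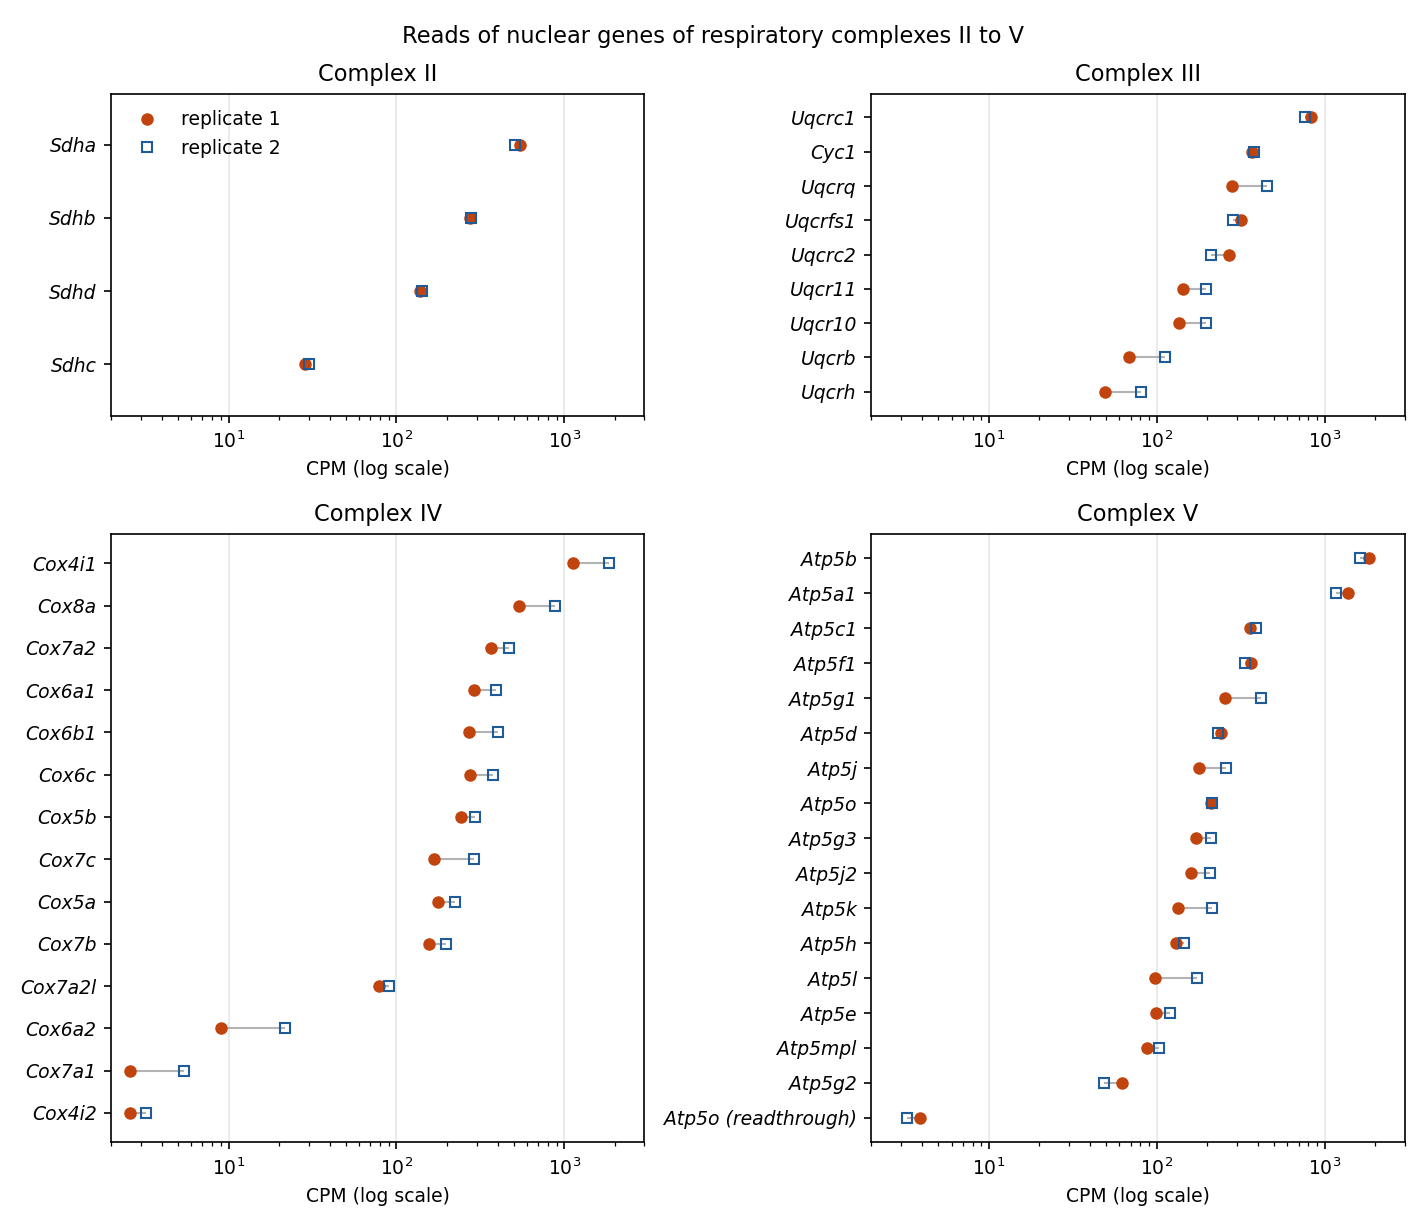
CPM (log scale) of each member in replicate 1 (filled circles) and replicate 2 (open squares), by complex, ordered by the mean of the libraries. Every gene of complex IV lies further right in replicate 2, whereas the circles and squares of complex II almost coincide.

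In complex II, all 4 genes were at similar levels in both libraries. Sdha on chromosome 13 (74322254 to 74350280), the flavoprotein that oxidises succinate, had 422 reads in replicate 1 and 467 in replicate 2, or 544 and 505 CPM. Sdhb, the iron-sulphur subunit, had 213 and 258 reads (275 and 279 CPM). The membrane anchors were lower: Sdhd had 107 and 132 reads (138 and 143 CPM) and Sdhc had 22 and 28 reads (28.4 and 30.3 CPM). The log2 ratio of replicate 1 over replicate 2 lay between -0.09 for Sdhc and 0.11 for Sdha, and none of the 4 passed Fisher's exact test (smallest unadjusted p = 0.267). The catalytic pair together held 819 CPM in replicate 1 and 784 CPM in replicate 2, and the anchors 166 and 173 CPM. Per length, the order of the catalytic pair turned round, with a mean level of 232 RPKM for Sdhb and 185 RPKM for Sdha, while Sdhc stayed lowest at 13 RPKM.

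In complex III, the small subunits were lower in replicate 1 as a sum while the core proteins were not. The core proteins Uqcrc1 (641 and 703 reads, 827 and 761 CPM) and Uqcrc2 (209 and 194 reads, 270 and 210 CPM) had log2 ratios of 0.12 and 0.36, neither past the test, and their summed reads had a ratio of 0.18 (95% interval 0.04 to 0.31). Of the redox subunits, Cyc1, which carries haem c1, had 288 and 352 reads (372 and 381 CPM, log2 ratio -0.04) and Uqcrfs1, the Rieske iron-sulphur protein, had 245 and 262 reads (316 and 283 CPM, log2 ratio 0.16). The 5 small subunits Uqcr10, Uqcr11, Uqcrb, Uqcrh and Uqcrq all lay below 0, between -0.71 and -0.46, and together held 677 CPM in replicate 1 against 1042 CPM in replicate 2 (-0.62, -0.77 to -0.47). Neither interval is a test of the difference between the sums. Uqcrq, the ubiquinone-binding small subunit VII on chromosome 11 (53427922 to 53430831), was the 1 member of complex III past the test, with 218 reads in replicate 1 and 421 in replicate 2. The 95% interval of its log2 ratio, -0.69, ran between -0.93 and -0.46, and its adjusted p was 1.40e-06 by Fisher's exact test. The lowest members were Uqcrb (53 and 104 reads) and Uqcrh (38 and 74 reads).

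In complex IV, all 12 tested genes were lower in replicate 1 in value, and 6 passed the test. Of all 11203 genes tested, 5431 were lower in replicate 1 in value and 1.1% were called lower. Cox4i1 on chromosome 8 (120668222 to 120674207), the largest nuclear subunit, had 875 reads in replicate 1 and 1700 in replicate 2, or 1129 and 1839 CPM and a log2 ratio of -0.70 (-0.82 to -0.59; adjusted p = 5.47e-30, Fisher's exact test). Cox8a, one of the small subunits, had 416 and 815 reads (537 and 882 CPM; log2 ratio -0.72, adjusted p = 3.19e-14 by the same exact test). Cox7c (129 and 269 reads, -0.80), Cox6b1 (210 and 370 reads, -0.56), Cox6c (212 and 347 reads, -0.46) and Cox6a1 (224 and 363 reads, -0.44) were the other members past it. Cox7a2 had 283 reads in replicate 1 and 430 in replicate 2 and a log2 ratio of -0.35, with an adjusted p of 0.0658 by Fisher's exact test. Cox5a (137 and 206 reads), Cox5b (189 and 273 reads) and Cox7b (121 and 182 reads) had log2 ratios of -0.33, -0.28 and -0.33 and did not pass either. In level, Cox4i1 led the complex on both scales, with a mean of 2275 RPKM, followed by Cox8a at 1289 RPKM and Cox7a2 at 665 RPKM. The lowest members of complex IV were the muscle and lung paralogs described below, and of the others Cox7a2l, with 61 reads in replicate 1 and 84 in replicate 2.

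In complex V, Atp5b and Atp5a1, which form the catalytic head, had the most reads. Atp5b on chromosome 10 (128083273 to 128090391), the beta subunit that carries the catalytic sites, had 1420 reads in replicate 1 and 1507 in replicate 2 (1832 and 1631 CPM; log2 ratio 0.17, Fisher's exact test, adjusted p = 0.0687). Atp5a1, the alpha subunit, had 1068 and 1082 reads (1378 and 1171 CPM) and was the 1 member past the test in the other direction. Its log2 ratio was 0.24 (0.11 to 0.36), at an adjusted p of 0.0148 by Fisher's exact test. The other genes of the head and central stalk, Atp5c1 (gamma, 277 reads in replicate 1 and 362 in replicate 2), Atp5d (delta, 186 and 214 reads) and Atp5e (epsilon, 77 and 111 reads), had log2 ratios of -0.13, 0.05 and -0.27, none past the test. With them the 5 genes held 3907 CPM in replicate 1 and 3545 CPM in replicate 2.

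The remaining parts of the synthase were lower. The peripheral stalk genes Atp5f1, Atp5h, Atp5j and Atp5o together held 885 CPM in replicate 1 and 956 CPM in replicate 2. The 3 genes of the membrane ring of c subunits, which rotates as protons pass, held 489 and 677 CPM, and the small membrane subunits Atp5j2, Atp5k, Atp5l and Atp5mpl 480 and 697 CPM. The stalk joins the head to the membrane and keeps it from turning with the ring. Atp5f1 was its highest gene in CPM (364 CPM in replicate 1 and 336 CPM in replicate 2), followed by Atp5o (212 and 214 CPM), Atp5j (179 and 260 CPM) and Atp5h (130 and 146 CPM). Per length, the stalk and the small membrane subunits had near-equal sums, at 1103 and 1136 RPKM. The members past the test were Atp5g1 (198 and 386 reads, log2 ratio -0.71), Atp5l (76 and 160 reads, -0.82), Atp5k (104 and 196 reads, -0.66) and Atp5j (139 and 240 reads, -0.53), all lower in replicate 1. Atp5j2 (124 and 193 reads, -0.38) and Atp5mpl (68 and 95 reads, -0.23) did not pass. The lowest members were Atp5g2, with 48 reads in replicate 1 and 45 in replicate 2, and the readthrough locus of Atp5o.

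Of the 41 members with at least 10 reads over both libraries, 12 passed Fisher's exact test with Benjamini-Hochberg adjustment at 0.05, against 2.11% of all 11203 genes tested. Of these, 11 were lower in replicate 1, a direction called in 1.1% of all genes, and 1 was higher, called in 1.01%. At an unadjusted p under 0.05 there were 23 of the 41, against 11.2% of all genes tested. By value alone, 32 members lay below 0 and 9 above it, with a median log2 ratio of -0.30 against 0.01 over all genes tested. Of all genes tested, 5431 lay below 0 and 5772 above it. The 3 members with too few reads were Cox4i2, Cox7a1 and the readthrough locus. Complex I, not part of these members, had 8 of 37 tested genes called lower in replicate 1 and 0 called higher. By value, 31 of them lay below 0 and 6 above it, with a median of -0.49.

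The differences between the libraries went with transcript length. Of the 25 tested members with a median model length under 1000 bases, 23 lay below 0 (median -0.46) and 9 were called lower in replicate 1. Of the 16 longer ones, 9 lay below 0 (median -0.03), with 2 called lower and 1 higher. Among 672 other protein-coding genes under 1000 bases, 74.6% lay below 0 (median -0.28) and 6.25% were called, while 46.3% of the 9986 longer ones lay below 0 (median 0.03) and 1.66% were called. Short models made up 61.0% of the tested members and 6.31% of the other protein-coding genes. Across the 41 members, Spearman's rho between ratio and length was 0.59, and across 10658 other protein-coding genes it was 0.13. These genes share their libraries, so no p is given. In the class of 500 to 750 bases, which holds Cox8a, Cox6a1 and Cox7c, the median was -0.56 over 15 members and -0.32 over 213 other protein-coding genes. Under 500 bases it was -0.49 for the 6 members and -0.49 for the 101 other genes.

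**Figure D2:**
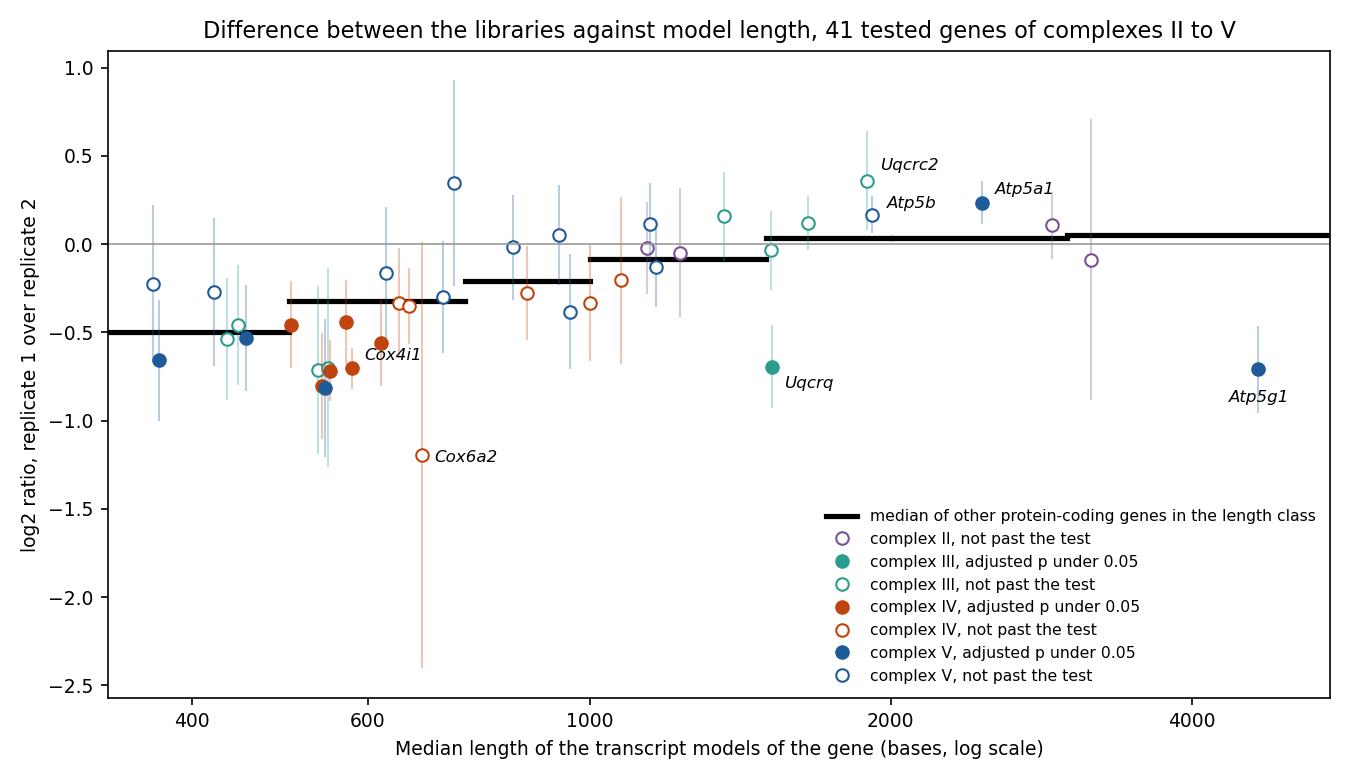
log2 ratio of replicate 1 over replicate 2 against the median length of the transcript models of each gene (log scale), for the 41 tested members, with 95% intervals from counts. Filled circles passed the test, and black bars give the median of other protein-coding genes in each length class, which runs between -0.49 for the shortest and 0.05 for the longest genes.

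When each gene was set against the reads of protein-coding genes of its own length class, 3 of the 12 members remained past the test, and the members' median was 0.02. The log2 ratio of Cox4i1 was then -0.24, against -0.70 over all mouse reads, while those of Uqcrq and Atp5g1 were both -0.76, against -0.69 and -0.71. In that comparison, chosen after the data were seen, 1.38% of protein-coding genes were called. Its denominator is a sum of reads, in which genes with many reads weigh most, and not the median gene of the class. A members' median of 0.02 therefore does not show that the members differed between the libraries as other genes of their length did. In the class of 500 to 750 bases the medians over all mouse reads were -0.56 for members and -0.32 for other protein-coding genes. Of the members that lost the call, Atp5a1 had a log2 ratio of 0.20 against 0.24 over all mouse reads, Cox7c -0.34 against -0.80, Cox8a -0.25 against -0.72 and Atp5l -0.35 against -0.82. Cox6b1 and Atp5k were at -0.09 and -0.11, and Cox6a1, Cox6c and Atp5j lay just above 0. For Uqcrq and Atp5g1 the length class is set by annotated 3′ ends. Uqcrq-201 is 1521 bases long with 246 coding bases, Atp5g1-201 is 4715 bases long, and the files do not say where each read ended.

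The libraries also differed in markers of other cells and regions. Of all genes tested, 1.01% were called higher in replicate 1 and 1.1% lower. Summed striatal markers stood at 928 CPM in replicate 1 and 223 CPM in replicate 2. All 6 tested were higher in replicate 1 in value and 5 passed the test, with Drd2 and Adora2a at 0 reads in replicate 2. Myelin markers stood at 3140 and 2061 CPM, with all 4 tested higher in replicate 1 in value and 3 past the test. Haemoglobin genes stood at 276 and 532 CPM, with all 4 lower in replicate 1 in value and 3 past the test. The choroid plexus markers stood at 38.7 and 256 CPM, with Ttr lower by the test and Clic6 at 0 reads in replicate 1. Excitatory neuron markers stood at 3448 and 5023 CPM, with 1 of 5 past the test, Nrgn, which was lower in replicate 1 (1942 CPM against 3525 CPM in replicate 2). The other 4 summed to 1506 CPM in replicate 1 and 1497 CPM in replicate 2. Astrocyte markers stood at 2304 and 2729 CPM, with 1 of 4 past the test, Aldoc, also lower in replicate 1. Markers of inhibitory neurons (355 and 262 CPM), microglia (217 and 181 CPM) and endothelium (394 and 408 CPM) had none past it. Their part in the difference between the members was not tested.

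Several subunits of complexes IV and V are encoded by paralogs that differ between tissues, and in cortex the widely expressed paralog held nearly all reads of most sets. Cox4i1 held 875 of 877 reads of its pair in replicate 1 (99.8%) and 1700 of 1703 in replicate 2 (99.8%), with 2 and 3 reads of Cox4i2, the paralog known from lung and from low oxygen. Cox8a held all 416 and 815 reads of its trio. Cox8b, the heart and skeletal muscle form, and Cox8c had 0 reads, which allows a share of up to 0.721% in replicate 1 and 0.368% in replicate 2. Cox6b1 held 210 of 210 reads in replicate 1 and 370 of 371 in replicate 2, beside Cox6b2, the form of testis, and Cox7b held 121 of 122 reads in replicate 1 and 182 of 182 in replicate 2.

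The muscle paralogs of the remaining sets were present at a low level. Cox6a2, the heart and skeletal muscle form of subunit VIa, had 7 of 231 reads in replicate 1 (3.03%, 95% Wilson interval 1.47% to 6.12%) and 20 of 383 in replicate 2 (5.22%, 3.41% to 7.93%). Cox7a1, the muscle form of subunit VIIa, had 2 of 346 and 5 of 519 reads. Of these, 1 and 2 lay on an unannotated 6-exon chain whose model begins at 30169875, before the annotated start of the gene at 30184144. Cox7a2, the widely expressed form, held 81.8% in replicate 1 and 82.9% in replicate 2, and Cox7a2l, known for its role in joining complexes III and IV into supercomplexes, held 17.6% and 16.2%. Muscle markers were also low in the same libraries, and 3 of 5 had any read. Ckm and Myh6 had 1 read over both libraries each, and Tnnt2 and Mb had none. Acta1 had 8 reads in replicate 1 and 6 in replicate 2, more than Cox6a2 in replicate 1 and more than Cox7a1 in both. Which cells the reads of the muscle paralogs came from was not tested.

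**Figure D3:**
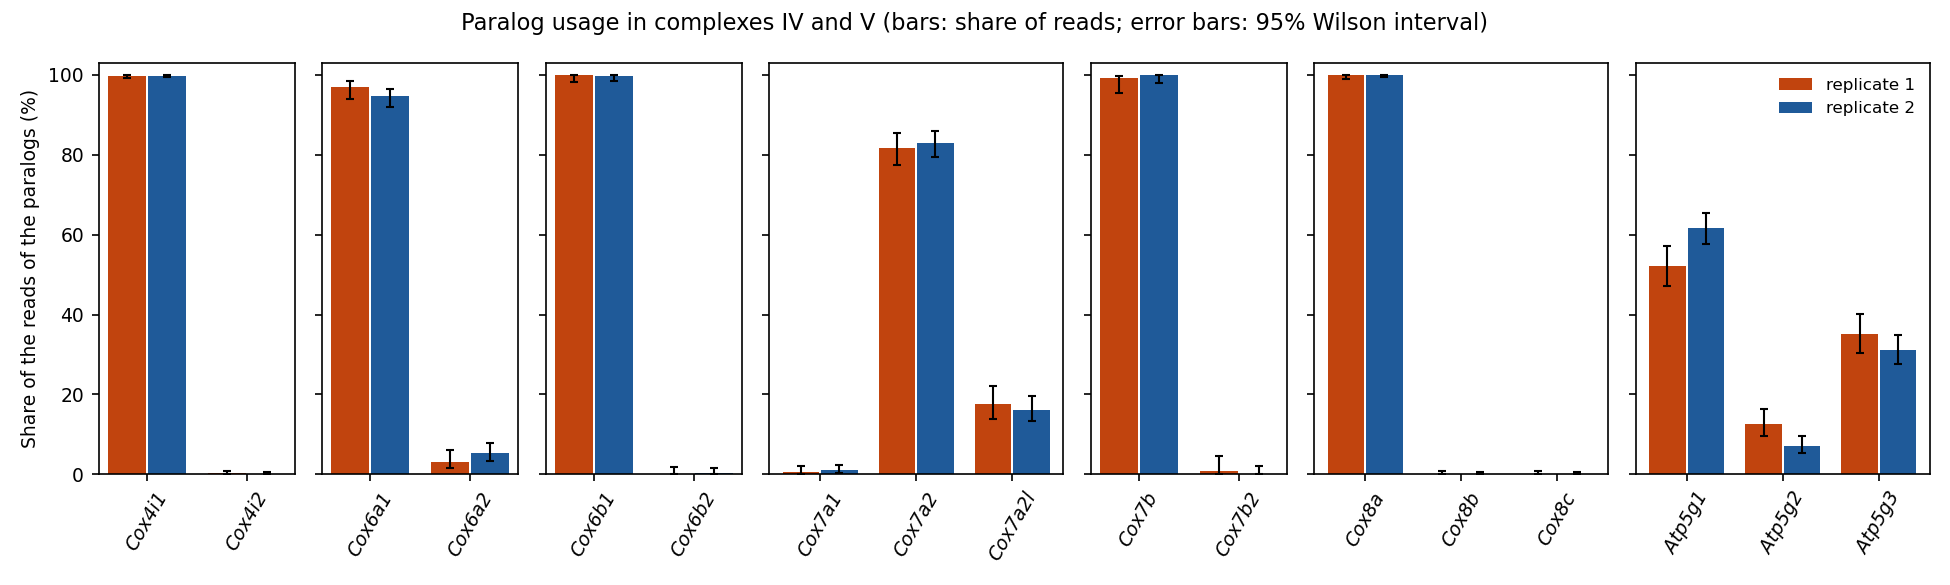
Share of the reads of each paralog set (%) held by each gene, replicate 1 in orange left of replicate 2 in blue, with 95% Wilson intervals. One gene holds nearly all reads in the sets of Cox4i, Cox6a, Cox6b, Cox7b and Cox8, whereas the c subunit set is shared by all of its genes.

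In the c subunit set all 3 genes took a substantial share. Atp5g1 held 198 of 379 reads in replicate 1 (52.2%, 47.2% to 57.2%) and 386 of 626 in replicate 2 (61.7%, 57.8% to 65.4%). Atp5g3 held 35.1% and 31.2%, and Atp5g2 held 12.7% (9.69% to 16.4%) and 7.19% (5.42% to 9.48%). Over the 11 shares tested, those of Atp5g1 and Atp5g2 differed between the libraries (Fisher's exact test, adjusted p = 0.0264 each) and that of Atp5g3 did not pass (adjusted p = 0.627 by the same exact test). The share of Atp5g2 rests on an assignment between copies, described next.

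The 3 genes encode the same mature c subunit behind different leader peptides that direct import into mitochondria. Their last 75 codons before the stop are printed here, to show how the genes differ where the protein does not, from the GENCODE M21 transcripts (GRCm38/mm10, coding strand, 5′ to 3′), with capitals at each position where the 3 genes are not identical.
Atp5g1: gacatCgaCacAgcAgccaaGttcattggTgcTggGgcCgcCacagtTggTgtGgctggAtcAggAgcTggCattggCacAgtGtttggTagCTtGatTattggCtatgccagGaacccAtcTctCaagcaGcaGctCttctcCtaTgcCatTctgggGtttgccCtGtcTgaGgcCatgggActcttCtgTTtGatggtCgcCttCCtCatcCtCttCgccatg
Atp5g2: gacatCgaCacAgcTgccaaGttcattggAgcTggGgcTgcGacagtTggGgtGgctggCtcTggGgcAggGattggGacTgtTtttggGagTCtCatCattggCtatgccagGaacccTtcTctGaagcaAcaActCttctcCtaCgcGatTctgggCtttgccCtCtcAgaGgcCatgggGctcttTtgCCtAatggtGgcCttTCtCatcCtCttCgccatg
Atp5g3: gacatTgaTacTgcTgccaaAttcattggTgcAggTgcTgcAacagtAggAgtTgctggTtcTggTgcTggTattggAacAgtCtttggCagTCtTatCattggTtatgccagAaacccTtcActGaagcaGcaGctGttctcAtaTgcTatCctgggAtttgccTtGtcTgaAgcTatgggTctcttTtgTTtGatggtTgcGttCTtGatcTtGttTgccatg
The stretches lie on the minus strand of chr11:96073107-96073635, chr15:102663017-102665166 and chr2:73908596-73909296, each across a splice junction, with the intron left out. Of the 225 positions, 57 differ, 52 of them at the last base of a codon, and all 75 codons specify the same residue in the 3 genes. Atp5g1 differs from Atp5g2 at 34 positions and from Atp5g3 at 45. The leader before this stretch takes 183 coding bases in Atp5g1, 213 in Atp5g2 and 198 in Atp5g3.

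Near-identical copies of the members make some counts uncertain. Of 43 members compared with the annotated transcripts, 21 had a copy at 90% identity or more over 80% or more of the coding sequence, 56 copies in all, and 9 of the copies had a read. The copies held 234 reads in replicate 1 and 402 in replicate 2. Atp5g2 was the most affected: the pseudogenes Gm10175 and Gm10231 match its whole coding sequence at 100% and held 44 reads in replicate 1 and 79 in replicate 2, beside 48 and 45 of the gene itself. With copies added to their parents, Atp5g2 held 21.2% of the c subunit reads in replicate 1 and 17.2% in replicate 2, and neither its share nor that of Atp5g1 passed the test (Fisher's exact test, adjusted p = 0.559 and 0.139).

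The other members with many copy reads were in complex IV. Gm12338, identical to Cox7c over its coding sequence, held 63 reads in replicate 1 and 129 in replicate 2, beside 129 and 269 of Cox7c, and with both counted the log2 ratio was -0.80. Gm6969, at 97.7% identity to Cox7a2l, held 54 and 75 reads, beside 61 and 84 of Cox7a2l. With it the share of Cox7a2l in its trio was 28.8% in replicate 1 and 26.8% in replicate 2. Gm11273, a gene annotated as protein-coding at 99.2% identity to Cox5b, held 44 and 71 reads, beside 189 and 273 of Cox5b. Whether these reads came from the copies or from their parents cannot be told apart from the counts.

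Most member reads matched an annotated transcript. Known models, which share their chain of splice junctions with an annotated transcript, held 87.3% of the members' reads in replicate 1 and 87.0% in replicate 2, against 78.7% and 77.8% in complex I and 72.6% and 71.4% in the other protein-coding genes. Complex IV was highest, at 97.0% and 96.8%, and complex V lowest, at 79.7% and 77.1%. In complex V, incomplete splice matches, which hold part of an annotated chain, took 17.6% of reads in replicate 1 and 19.5% in replicate 2. Chains with an unannotated combination of sites or an unannotated site were 1.02% and 1.11% of the members' reads in replicate 1 and 1.02% and 1.01% in replicate 2, against 7.15% and 4.48%, and 6.97% and 4.56%, in the other protein-coding genes.

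In 40 members each library had 20 reads or more, and there the isoform with most reads took a median of 90.2% of its gene in replicate 1 and 89.7% in replicate 2. It was a Known model in 38. The exceptions were Atp5f1 and Atp5j, both of the peripheral stalk. For Atp5f1, the b subunit, an unannotated chain of 7 exons held 254 of 282 reads in replicate 1 (90.1%) and 278 of 311 in replicate 2 (89.4%). It lacks the upstream non-coding exon of Atp5f1-201 and starts in the exon that holds the start codon. The coding bases of that exon in Atp5f1-201, from the start codon (capitals) to the splice site, lie on the minus strand of chr3:105959148-105959187. The model of the chain begins before them in both libraries. A read that began inside them would carry the same junctions, so the bases do not show that every read holds the start codon.
Atp5f1: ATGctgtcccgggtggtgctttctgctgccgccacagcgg
The 5′ end of the model was placed at 105959246 in replicate 1 and 105959276 in replicate 2, both of them starts of other annotated transcripts of the gene, and the starts of the reads themselves are not in the files.

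For Atp5j, coupling factor 6, a chain of 4 exons held 90 of 139 reads in replicate 1 (64.7%) and 155 of 240 in replicate 2 (64.6%), and the annotated 5-exon transcript Atp5j-201 held 20 and 32 reads. The chain begins at 84834832 on chromosome 16, within the second exon of Atp5j-201, and contains the whole coding sequence. By the span of the deposited models, 100% of Atp5j reads in replicate 1 and 99.6% in replicate 2 covered that sequence. An annotated exon of 55 bases in the gene was included in 4 of 123 informative reads in replicate 1 (3.25%) and 15 of 214 in replicate 2 (7.01%).

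Cox4i1 was the 1 gene led by a transcript annotated as non-coding. Cox4i1-204, a 3-exon transcript of the retained intron class, held 467 of 875 reads in replicate 1 (53.4%, 50.1% to 56.7%) and 1063 of 1700 in replicate 2 (62.5%, 60.2% to 64.8%). The 5-exon coding transcript Cox4i1-201 held 381 reads (43.5%) and 590 reads (34.7%). The intervals of replicates 1 and 2 do not overlap for either form. Cox4i1-204 is annotated to begin in the intron before the third exon, so it lacks the following 73 coding bases of Cox4i1-201 (plus strand, chr8:120669310-120669382, start codon in capitals).
Cox4i1: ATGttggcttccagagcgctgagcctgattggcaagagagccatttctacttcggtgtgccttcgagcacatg
The third exon is present in both forms. A read of Cox4i1-201 that began inside the third exon would carry the same junctions as Cox4i1-204, and the files give no start for each read, so the 2 cannot be told apart here.

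Reads on models that span the whole coding sequence were the rule in most members. A spliced model counted here when its outer ends enclosed the coding sequence, even if it retained an intron or skipped an exon. Cyc1 stood at 98.3% in replicate 1 and 98.0% in replicate 2, although its retained-intron transcript held 10.4% and 9.66%. Known models have annotated ends, and where each read began or ended is not given. Over all of them, such models held 88.4% of reads in replicate 1 (87.8% to 89.0%) and 84.5% in replicate 2 (83.9% to 85.1%), and in 34 of the 40 genes with at least 20 reads the share was over 80% in both libraries. It was under 70% in either library in 4 genes. Cox4i1 was lowest, at 45.8% in replicate 1 and 36.5% in replicate 2. Atp5g2 stood at 56.2% and 62.2%, with single-exon models at 43.8% and 37.8% of its reads. Uqcrq stood at 66.5% and 66.0%, with single-exon models at 33.5% and 34.0%, and Sdhc, on 22 and 28 reads, at 81.8% and 67.9%. Atp5b followed, at 80.1% and 71.7%, and Sdhd, with single-exon models at 13.1% and 18.9%, stood at 86.0% and 78.8%.

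**Figure D4:**
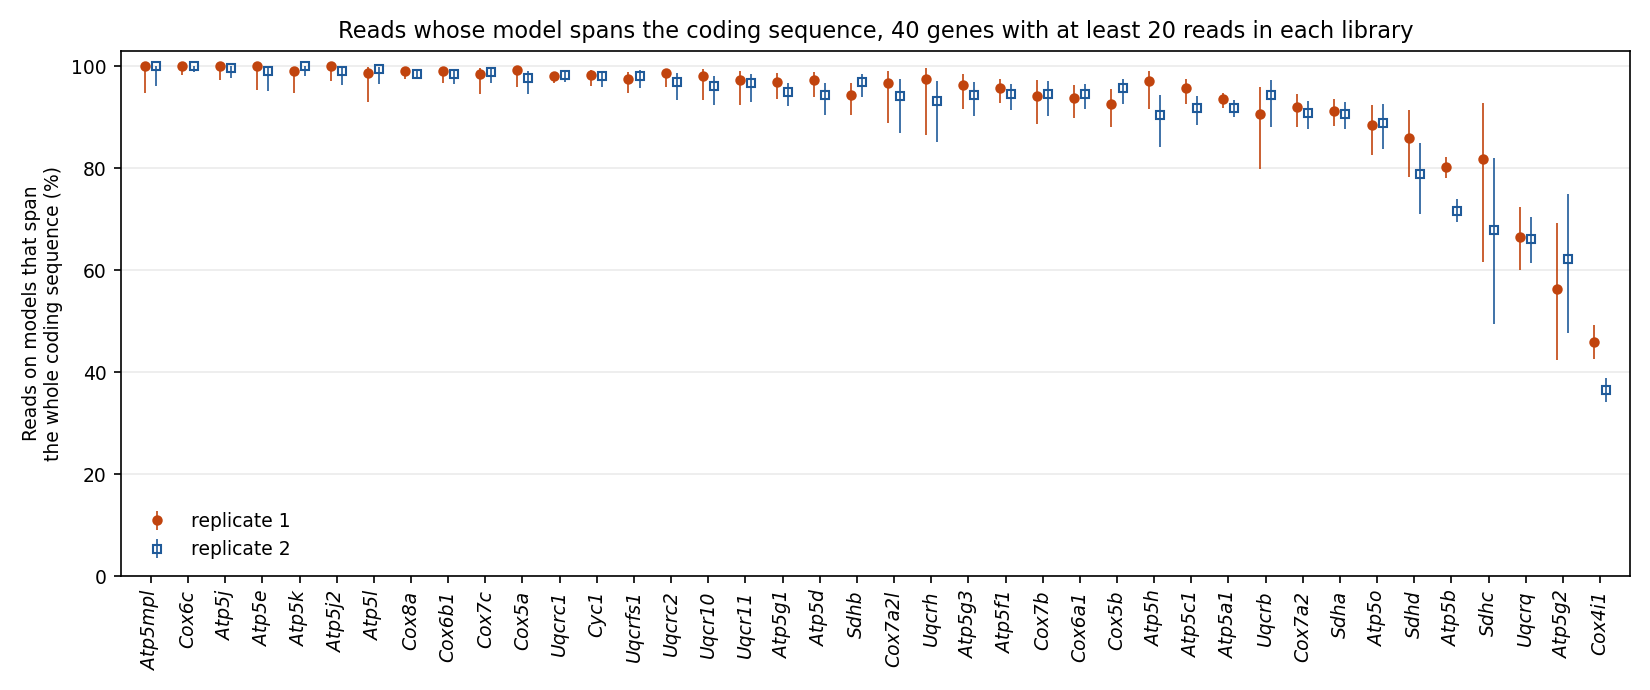
Share of reads (%) on models that span the coding sequence from the first to the last coding base, in replicate 1 (filled circles) and replicate 2 (open squares), with 95% Wilson intervals, for the 40 members with at least 20 reads in each library. Most genes lie over 80%, and Cox4i1 lies lowest at 45.8% and 36.5%. Spanning is judged by the outer ends of the model, which may retain an intron or skip an exon.

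In 2 of the 5 members drawn below, the interval of the ratio lay lower for the short form than for the long one. These 5 do not include every member with several forms. In Atp5b, the 10-exon transcript Atp5b-201 had 1120 reads in replicate 1 and 1061 in replicate 2 (log2 ratio 0.33, 0.21 to 0.45), while a chain of its last 2 exons, 372 bases long, had 245 and 378 (-0.37, -0.60 to -0.14). In Cox4i1 the ratio was -0.93 (-1.09 to -0.77) for the 3-exon form and -0.38 (-0.56 to -0.19) for the 5-exon form. In Uqcrq the single-exon and the 2-exon forms had near-equal ratios of -0.71 and -0.68. In Atp5g1, not drawn, the longer form was the lower in value. Atp5g1-201 (4715 bases) had a ratio of -0.90 (-1.27 to -0.54) and Atp5g1-202 (596 bases) one of -0.63 (-1.01 to -0.25). The intervals overlapped for the forms of Uqcrq, Atp5j, Atp5g2 and Atp5g1, and the differences between forms were not tested.

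**Figure D5:**
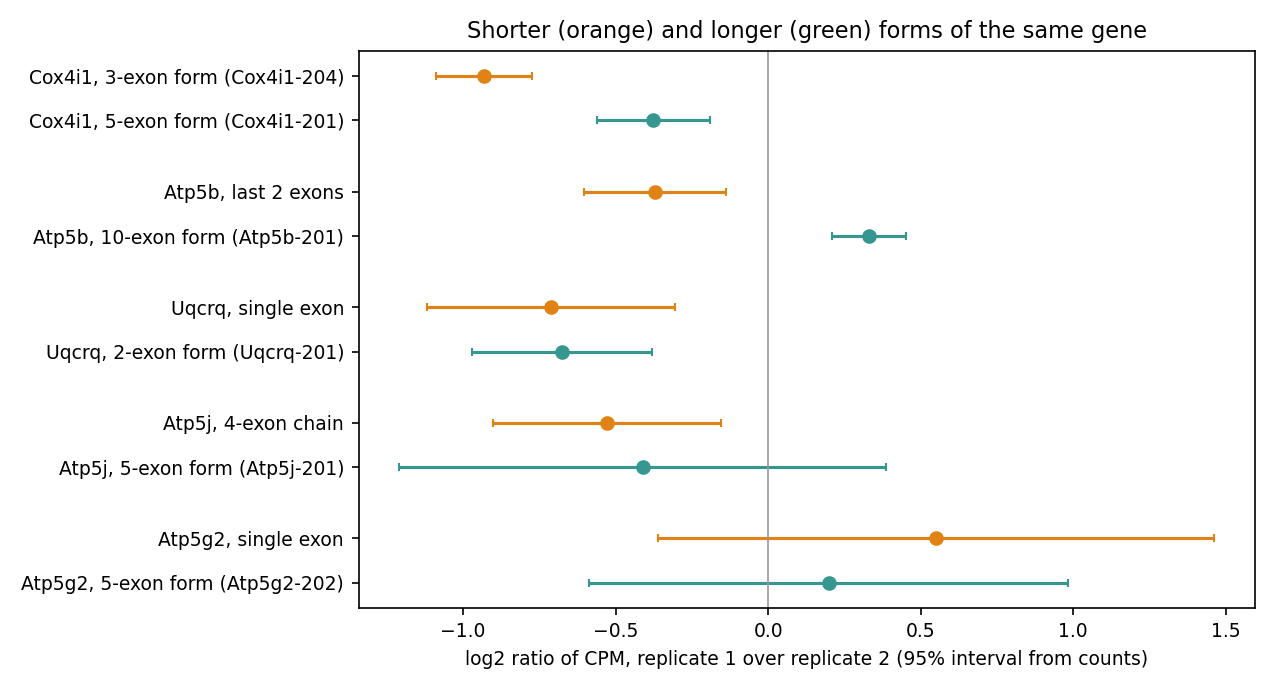
log2 ratio of CPM, replicate 1 over replicate 2, with 95% intervals from counts, for a shorter form (orange, above) and a longer form (green, below) of each of 5 members. The intervals of the 2 forms are apart in Cox4i1 and Atp5b and overlap in Uqcrq, Atp5j and Atp5g2.

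The c subunit genes also used several annotated forms. Atp5g1-201 held 44.4% of Atp5g1 reads in replicate 1 and 51.0% in replicate 2, and Atp5g1-202 held 42.9% and 40.7%. Atp5g3-201 held 52.6% and 52.8% and Atp5g3-202 held 27.8% and 29.7%. Sdhc-202 led Sdhc at 59.1% and 57.1%, on few reads. In complex III, a transcript of Cyc1 annotated as a retained intron held 10.4% of reads in replicate 1 and 9.66% in replicate 2.

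Atp5c1 has a cassette exon of 37 bases near its 3′ end (chromosome 2, 10056770 to 10056806) that is known to be skipped in heart and skeletal muscle. In cortex it was included in 255 of 267 informative reads in replicate 1 (95.5%, 92.3% to 97.4%) and in 331 of 355 in replicate 2 (93.2%, 90.1% to 95.4%). The exon changes the end of the gamma subunit, as the last coding bases of both forms show, with capitals for the bases after the shared junction, stop codon included (minus strand; chr2:10056800-10059022 and chr2:10056158-10059022).
Atp5c1-203: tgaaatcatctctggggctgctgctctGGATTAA
Atp5c1-201: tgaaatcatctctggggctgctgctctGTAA
The form with the exon, Atp5c1-203, specifies 298 residues, and the form without it, Atp5c1-201, 297. Atp5c1-203 led the gene with 239 of 277 reads in replicate 1 and 300 of 362 in replicate 2. Of other cassette exons of the members with at least 20 informative reads, that of Cox7a2l (129 bases) was included in 53 of 54 reads in replicate 1 and 69 of 72 in replicate 2, and that of Uqcr10 (86 bases) in 6 of 102 and 8 of 175.

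Promoters of many respiratory genes are known to bind NRF1, GABP of the ETS family and YY1. In the RefSeq promoter table (GRCm38.p6), 32 of the 43 member names had a window of 250 bases before to 50 after the start, Atp5f1 under its newer name Atp5pb. No window was used for Atp5a1, Atp5mpl, Cox4i1, Cox4i2, Cox6a2, Cox6c, Cyc1, Sdhc, Uqcrb, Uqcrc2 and Uqcrq. The NRF1 letters GCGCANGCG, searched on both strands, were in 12 of the 32 genes (37.5%), against 8 of 34 genes of complex I (23.5%) and 7.03% of 27025 genes in the table. They were Sdha and Sdhd of complex II, Uqcrc1 and Uqcr11 of complex III, Cox6a1 of complex IV, and Atp5c1, Atp5g2, Atp5g3, Atp5h, Atp5k, Atp5l and Atp5o of complex V. The ETS letters CCGGAAGT were in Uqcr11, Uqcrh, Cox8a and Atp5h (12.5%, against 4.31% of all), and the YY1 letters AAGATGGCG in Atp5j and Atp5j2 (6.25%, against 1.64%). With 1 more base at the end of the motif, a form searched at the start, the NRF1 letters were in 10 of the 32 genes (against 5.19% of all) and the YY1 letters in 1 (against 0.995%). Forward and reverse matches to the NRF1 letters can overlap each other. No match to 1 motif overlapped a match to another in these genes.

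The stretches below are shown because they carry such matches (capitals) outside every annotated exon, for 1 gene each of complexes IV, V and III, all on the minus strand (chr5:115348982-115349129, chr11:115419963-115420127 and chr10:80406831-80407071).
Cox6a1: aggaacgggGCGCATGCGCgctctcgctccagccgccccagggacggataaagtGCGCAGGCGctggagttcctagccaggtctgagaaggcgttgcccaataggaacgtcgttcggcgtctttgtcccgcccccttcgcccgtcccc
Atp5h: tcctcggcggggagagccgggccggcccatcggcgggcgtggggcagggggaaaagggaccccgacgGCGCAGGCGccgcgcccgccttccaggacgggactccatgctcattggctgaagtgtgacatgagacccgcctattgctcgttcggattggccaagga
Uqcr11: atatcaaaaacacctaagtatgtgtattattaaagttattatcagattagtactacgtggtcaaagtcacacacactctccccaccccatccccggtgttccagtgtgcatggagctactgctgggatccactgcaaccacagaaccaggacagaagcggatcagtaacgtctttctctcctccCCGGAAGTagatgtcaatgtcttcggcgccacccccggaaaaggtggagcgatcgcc
A match is a description of these letters and not a binding site, and binding was not measured. Of these genes, Cox6a1 was lower in replicate 1 by the test, while Atp5h (log2 ratio -0.16) and Uqcr11 (-0.46) did not pass.

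Other genes of the pathway were counted list by list. Of the subunits encoded by the mitochondrial genome, 5 of 6 had a read, together 183 CPM in replicate 1 and 258 CPM in replicate 2. How fully such transcripts were captured and assigned to genes was not measured, so few or 0 reads do not show a low level. The highest were mt-Co1, the catalytic subunit of complex IV, with 115 and 158 CPM, mt-Cytb of complex III with 27.1 and 49.8 CPM, and mt-Atp6 of complex V with 24.5 and 24.9 CPM, while mt-Atp8 had 0 reads. None passed Fisher's exact test after adjustment, 2 had an unadjusted p under 0.05 (11.2% of all genes tested had one), and all 5 lay below 0 (median -0.48). Of 36 assembly factors, 35 had a read and 33 were tested. Cox14, Tmem70 and Coa3 were the highest, at a mean of 148, 123 and 114 CPM, 0 passed Fisher's exact test over all genes, 7 of the 33 had an unadjusted p under 0.05 against the same 11.2%, and the median was -0.23 with 24 below 0.

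Of the electron carriers and supercomplex factors, 6 were tested and none passed Fisher's exact test after adjustment, with 1 at an unadjusted p under 0.05. Cycs, the mobile carrier cytochrome c, had 285 CPM in replicate 1 and 344 CPM in replicate 2, Higd1a 246 and 245 CPM, and Higd2a 73.5 and 88.7 CPM. Among 10 tested transcriptional regulators, Esrra, the nuclear receptor ERR alpha, was the 1 past the test and the highest by its mean, at 42.6 CPM in replicate 1 and 96.3 CPM in replicate 2 (33 and 89 reads). Its ratio was -1.16 on the log2 scale (-1.74 to -0.59; adjusted p = 0.00414, Fisher's exact test). The median length of its models was 73 bases, against 3755 for Polrmt and 2674 for Gabpb1. Polrmt, the mitochondrial RNA polymerase, had 46.4 CPM in replicate 1 and 40.03 CPM in replicate 2, and Gabpb1, a subunit of GABP, 51.6 and 32.5 CPM. Both exceeded Esrra in replicate 1, and neither passed.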

How the data were processed

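According to the deposited text, the authors built transcript models for each library alone on mm10 with GENCODE M21, and the deposited values are whole-number read counts per model, with no normalization. TALON is named in the deposited models. The aligner and tool versions were not given in the sources used here. Model counts were summed per gene and scaled to mouse reads (CPM). Fisher's exact test, two-sided (scipy 1.17.1), set each gene's reads against all other mouse reads, with Benjamini-Hochberg adjustment over the 11203 genes that had 10 reads or more in all. The test was checked on simulated counts with counting error alone and a fixed fold change in some genes. That check cannot show false calls where libraries also differ in other ways. edgeR 4.0.16 gave TMM factors and DESeq2 1.42.0 size factors for alternatives. Log2 ratios add 0.5 reads. Paralog shares were adjusted over 11 tests, with floors of 3 counts. Copies were found with blastn. Members, lists and roles were chosen with earlier results of these data known. Reads, shares or ratios were given for the 3 highest and 2 lowest members of each complex, for paralogs and for members past the test. They were also given for members with an unusual leading isoform. Intervals and adjusted p-values were printed for only some of these. The isoform, copy, coding-span and promoter comparisons were described after the data were seen. Sequences came from GENCODE M21 and RefSeq by script. Protein sequences were not used here.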

Additional observations from a re-analysis of the deposited data

How the results depend on the processing

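The count of members past the test that were lower in replicate 1 was 11 or 12 in most alternatives, 10 with reads of Known models only (Atp5j lost) and 13 with DESeq2 size factors (Cox7a2 and Uqcr10 gained). The count of members higher in replicate 1 was 2 with a minimum of 50 reads or with reads of Known models only (Atp5b gained in both). Set against protein-coding genes of the same length class, chosen after the data were seen, 3 members were called lower and 0 were called higher. The log2 ratios of Cox6a1 (0.027), Cox6c (0.0127) and Atp5j (0.0172) turned positive. With reads of Known models only, the summed CPM was 838 in complex II, 2310 in complex III and 4562 in complex V, beside 4449 in complex IV, and complex IV exceeded complex V in replicate 2. With models of a single read left out it was 935 in complex II and 5728 in complex V, and per kb it was 545, 7281 and 5130 for complexes II, IV and V. With copies added, complex V held 5937 CPM, and the mean shares were 19.2% for Atp5g2, 28.8% for Atp5g3, 71.6% for Cox7a2 and 27.8% for Cox7a2l. With Known models only, Cox7a1, Cox7a2 and Cox7a2l held 0.375%, 83.8% and 15.9%, and with single-read models left out Cox7a1 and Cox7a2 held 0.394% and 83.7%. The Known share was 87.9% without genomic and antisense models and 88.4% without single-read models. The ratio to the genes picked by name as complex I was 2.03 by means, on which their highest gene, Ndufa4, weighs more than on a median. The causes were not tested. No paired analysis was possible because the labels give 1 group. Leaving out either library leaves the values of the other, given in the text. At 10 reads, only large ratios could pass the test.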
